A study of Mus musculus with 22 samples.

Results

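In wild-type E14 mouse embryonic stem cells, 1830 of 6294 H3K27me3 domains (29.1%) were overlapped by no EZH2 peak, and these 1830 domains are described here. They were chosen by comparing measured peak lists: a domain of the wild-type H3K27me3 list was taken when no peak of the wild-type EZH2 list overlapped it by 1 bp or more. The other 4464 domains (70.9%) are called EZH2-bearing below. The study used ChIP-seq, the sequencing of DNA pulled down with chromatin by an antibody, on stem cells in serum and LIF, in 22 libraries in all. The report uses 7 peak lists, each standing for the 2 libraries of 1 group: those of wild-type E14 cells for Mtf2, Ezh2, H3K4me3 and H3K27me3, and those of Mtf2 GT/GT cells, which carry a gene trap on both Mtf2 alleles, for the last 3 antibodies. The parental line of the mutant cells is not in the labels, so genotype and line cannot be told apart, and MTF2 in GT/GT cells was not analysed here. With 1 list per group there is no error between replicates. The intervals given are exact 95% intervals for counting over domains, which are not cultures, and depth is unknown because the lists hold positions without counts.

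H3K27me3, trimethylation of histone H3 at lysine 27, is laid down by the Polycomb complex PRC2, whose catalytic subunit is EZH2 (or its relative EZH1). MTF2 is an accessory PRC2 subunit that binds CpG-rich DNA and helps to recruit the complex to CpG islands. H3K4me3 marks CpG-island promoters, and in embryonic stem cells many developmental promoters carry both marks and are termed bivalent.

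The sequences below show the contrast in CpG content within which the domains lie. Each is the 200 bp with the most CpG in its domain, except that the Trim7 window was taken inside the MTF2 peak. All are GRCm38, plus strand, 5′ to 3′, with each CpG in capitals. The first is from the widest domain without EZH2 at a promoter (upstream of Pef1, chr4:130099398-130099597, 10 CpG). The second is from the widest such domain of all (intergenic, nearest gene Nkx1-1, chr5:33461803-33462002, 16 CpG). The third is from the one farthest from any EZH2 peak (in the gene Slitrk1, chr14:108911331-108911530, 14 CpG). The fourth is from a domain without EZH2 that MTF2 overlaps, at Trim7 (chr11:48837673-48837872, 25 CpG). The last is from the EZH2-bearing promoter domain closest in width to that of Pef1 (in Tfap2b, chr1:19209832-19210031, 22 CpG).
Pef1: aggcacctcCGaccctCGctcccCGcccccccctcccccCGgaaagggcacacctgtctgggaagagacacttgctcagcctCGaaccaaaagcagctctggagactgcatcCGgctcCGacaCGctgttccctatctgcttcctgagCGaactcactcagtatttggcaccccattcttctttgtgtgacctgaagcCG
Nkx1-1: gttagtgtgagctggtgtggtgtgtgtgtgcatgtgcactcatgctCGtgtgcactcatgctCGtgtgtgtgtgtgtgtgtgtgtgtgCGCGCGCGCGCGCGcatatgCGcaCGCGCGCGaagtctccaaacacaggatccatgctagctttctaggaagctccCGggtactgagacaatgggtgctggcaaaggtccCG
Slitrk1: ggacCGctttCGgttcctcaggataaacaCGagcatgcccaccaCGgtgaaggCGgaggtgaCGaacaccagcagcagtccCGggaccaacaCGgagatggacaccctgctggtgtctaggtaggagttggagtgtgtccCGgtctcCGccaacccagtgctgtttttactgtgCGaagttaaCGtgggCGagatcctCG
Trim7: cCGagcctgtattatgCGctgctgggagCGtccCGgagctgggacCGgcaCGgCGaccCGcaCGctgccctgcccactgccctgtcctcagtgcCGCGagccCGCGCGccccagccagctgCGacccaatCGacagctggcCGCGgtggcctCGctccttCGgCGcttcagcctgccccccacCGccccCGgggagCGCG
Tfap2b (EZH2-bearing): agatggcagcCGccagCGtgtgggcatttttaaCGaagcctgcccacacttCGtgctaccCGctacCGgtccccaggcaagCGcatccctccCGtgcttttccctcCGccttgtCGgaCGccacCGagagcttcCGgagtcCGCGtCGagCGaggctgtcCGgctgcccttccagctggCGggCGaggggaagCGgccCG
In the Pef1 and Slitrk1 windows the CpG are scattered, and in the Nkx1-1 window many of them lie in a run of alternating C and G next to a TG repeat. A count of 10 CpG in the richest window was reached or undercut by 38.5% of the domains without EZH2 and by 1.03% of the EZH2-bearing ones. For a count of 25 the shares were 94.9% and 43.6%. The richest window of the Trim7 domain held 30 CpG, so the shares for 25 do not rank that domain.

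The domains without EZH2 were narrow. Their median width was 2103.5 bp (2041 to 2165), against 4316 bp (4242 to 4400) for EZH2-bearing domains, and their middle 50% lay between 1356 and 3019 bp. Width is tied to the way they were chosen, since a wider domain offers more bases for an EZH2 peak to overlap, so this is a description. In 5 equal width classes of all 6294 domains, the share without EZH2 went from 70.2% (67.6 to 72.7) in the narrowest class, of 248 to 2062 bp, through 40.3%, 18.1% and 10.8% to 5.96% (4.71 to 7.41) in the widest, of 6070 bp and more. The narrowest class held 884 of the 1830 and the widest 75. The widest domain without EZH2 spanned 31770 bp and the widest EZH2-bearing one 133253 bp.

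The rule has a threshold at 1 bp of overlap. Just inside it, the 3 domains nearest to an EZH2 peak lay 13 bp (nearest gene Gmds), 66 bp (Ap3s1) and 83 bp (Arhgap26) away. Just outside it, the smallest overlaps were 34 bp (nearest gene Ccdc54), 36 bp (Nr2f6) and 38 bp (Lrrk2), or 4.56%, 3.20% and 2.08% of those domains.

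**Figure D1:**
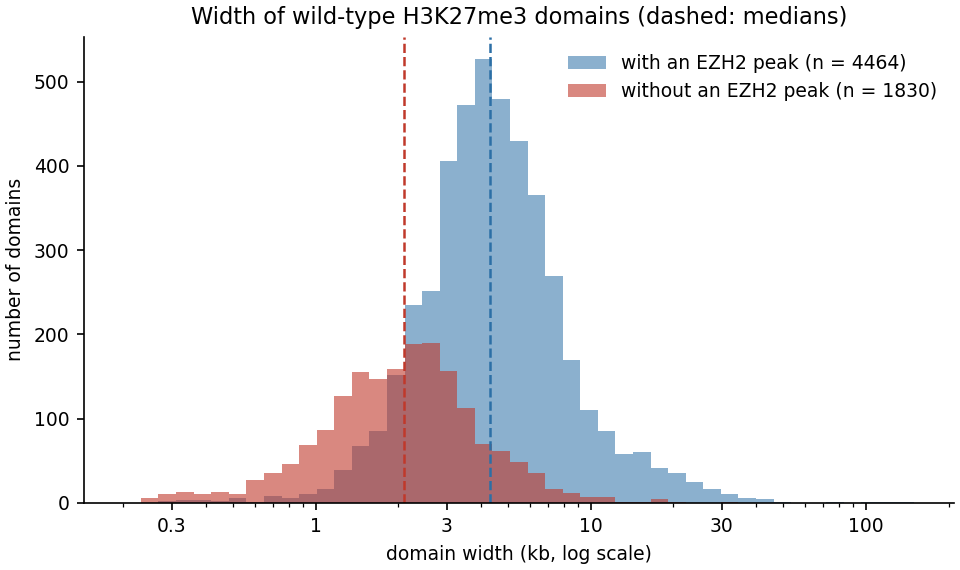
Number of wild-type H3K27me3 domains (y axis) by width in kb (x axis, log scale), for the 1830 domains without (red) and the 4464 with (blue) an EZH2 peak; dashed lines are the medians. The distributions overlap, with medians of 2103.5 and 4316 bp.

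Most domains without EZH2 lay away from promoters. A promoter, here within 1 kb of a protein-coding transcription start site (TSS), was touched by 687 of them (37.5%, 35.3 to 39.8), against 65.4% of all domains and 3431 EZH2-bearing ones (76.9%, 75.6 to 78.1). With the EZH2-bearing shares weighted to the same width classes the latter was 67.2%. With genes of every type, 45.3% of the domains without EZH2 touched a promoter. Exons, introns and intergenic sequence were read from protein-coding genes alone, so a domain in a non-coding gene could count as intergenic. Read so, the remaining domains without EZH2 were intergenic in 617 cases (33.7%), touched an exon in 303 (16.6%) and lay within introns in 223 (12.2%). Of EZH2-bearing domains the shares were 11.1%, 8.36% and 3.72%. By the midpoint of the domains without EZH2, 9.23% lay in coding sequence, 1.86% in a UTR and 25.8% in an intron. Another 25.4% lay at a promoter and 37.7% between protein-coding genes.

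At promoters the domain often sat beside the start site. The nearest TSS lay inside 389 of the 687 (56.6%), while a TSS lay inside 3074 of the 3431 EZH2-bearing promoter domains (89.6%). Another 203 lay wholly downstream of the start, within the transcribed side, and 95 wholly upstream. Widths were not matched in this comparison: promoter domains had a median of 2139 bp without EZH2 and 4556 bp with it. Among those without EZH2, domains holding the TSS had a median of 2575 bp and the others 1643.5 bp. An H3K4me3 peak covered the TSS itself in 68.6% of the domains that held it, in 77.8% of those whose domain was downstream and in 86.3% of those whose domain was upstream. Cdkn1a, which encodes a cyclin-dependent kinase inhibitor, is of the downstream kind: its domain of 1161 bp began 242 bp into the gene and lay in full under H3K4me3 in both genotypes, with 8.01 CpG per 100 bp. The domain at Krt8, of 3260 bp, began 307 bp into that gene, with 2294 bp under H3K4me3.

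**Figure D2:**
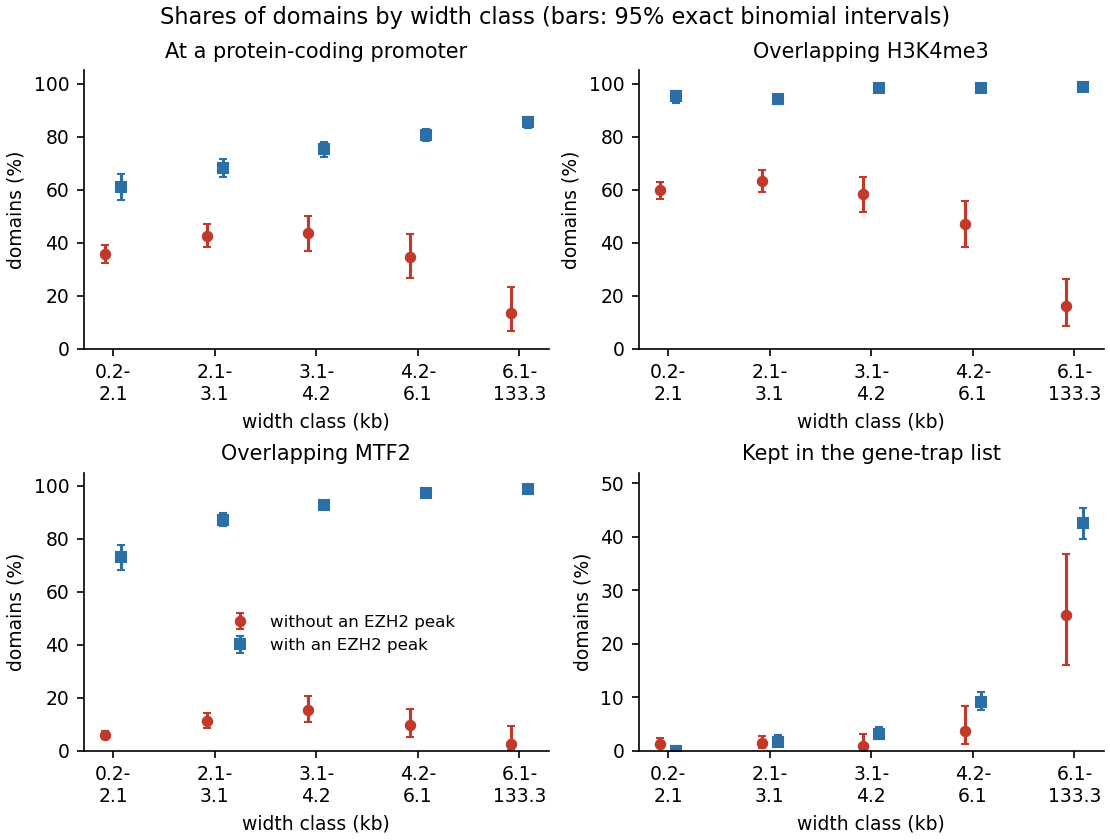
Percent of domains (y axes) at a protein-coding promoter, overlapping wild-type H3K4me3, overlapping wild-type MTF2 and kept in the gene-trap H3K27me3 list, by width class in kb (x axes), for domains without (red circles) and with (blue squares) an EZH2 peak; bars are exact 95% intervals. For the first 3 measures the groups are apart in every class, from 35.6% against 61.1% at promoters in the narrowest to 2.67% against 98.9% with MTF2 in the widest, whereas the kept shares run close together in the second class (1.38% and 1.73%) and are 25.3% and 42.5% in the widest.

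H3K4me3 overlapped 1058 of the 1830 domains (57.8%, 55.5 to 60.1), against 85.9% of all domains and 97.5% (96.96 to 97.9) of EZH2-bearing ones, or 95.7% with those weighted to the same widths. Where it did, a median of 796.5 bp lay under H3K4me3, against 1596 bp in EZH2-bearing domains. Location divided the domains: 82.8% of those at promoters carried H3K4me3, 67.3% of those at other exons, 35.0% of the intronic and 33.5% of the intergenic ones. In the 2 widest classes H3K4me3 was less common, at 47.1% and 16% (8.55 to 26.3), while EZH2-bearing domains were at 94.1% or more in every class. The 654 domains with neither a promoter nor H3K4me3 (35.7%) had a median width of 2160 bp and 1.48 CpG per 100 bp.

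In gene-trap cells H3K4me3 overlapped 1132 of the domains (61.9%, 59.6 to 64.1), against 87.8% of all. Both genotypes had it in 971, wild type alone in 87, gene trap alone in 161 and neither in 611. Of the 1058 with H3K4me3 in wild-type cells, 8.22% (6.64 to 10.04) had none in the gene-trap list, against 2.00% of all such domains and 0.483% (0.299 to 0.737) of the EZH2-bearing ones. Of the 772 without it, 20.9% (18.04 to 23.9) had a gene-trap peak, against 25.6% of all such domains and 58.4% (48.8 to 67.6) of the EZH2-bearing ones, of which there were 113. Of the length of the domains, 20.9% lay under wild-type and 22.5% under gene-trap H3K4me3.

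Members with a gene-trap H3K4me3 peak alone included Dlg4, which encodes the postsynaptic scaffold PSD-95, with 0 bp in wild-type and 1299 bp in gene-trap cells. Mfsd4b1, a transporter gene, went from 0 to 955 bp, and Samd11 from 0 to 940 bp. The reverse was seen at Syt7, a synaptotagmin gene, with 110 bp in wild-type and 0 bp in gene-trap cells. These are peak calls from 1 list each.

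MTF2 peaks overlapped 159 of the domains (8.69%, 7.44 to 10.07), against 68.5% of all domains and 93.0% (92.2 to 93.7) of EZH2-bearing ones, or 82.3% with those weighted to the same widths. When EZH2 peaks of at least 500 bp alone were used to choose the domains, 2712 domains had no such peak. Of these 28.3% had MTF2, against 98.9% of the others. The MTF2 peaks were mostly small: peaks of at least 500 bp overlapped 14 domains without EZH2 (0.765%) and 3485 EZH2-bearing ones (78.1%). A median of 243 bp of the domain was under MTF2, against 1129 bp in EZH2-bearing domains. The 159 were at a promoter in 106 cases (66.7%, 58.8 to 73.9) and carried H3K4me3 in 136 (85.5%, 79.1 to 90.6). Of the 1671 without MTF2, 34.8% were at a promoter and 55.2% carried H3K4me3.

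The domains with the most bases under MTF2 were at the promoters of Zeb1, Trim7, Inhba and Mfsd4b1 and in Xrra1. Zeb1, which encodes a zinc-finger repressor of epithelial genes, had 1032 bp of its 2830-bp domain under MTF2 and 2233 bp under H3K4me3, with the nearest EZH2 peak 956424 bp away. Trim7, a ubiquitin ligase gene whose sequence is given above, had 778 of 2724 bp under MTF2. Inhba, which encodes the activin A subunit, had 674 of 3278 bp under MTF2 and an EZH2 peak 3733 bp away. None of these 3 had a gene-trap H3K27me3 peak. Mfsd4b1 had 628 of 4979 bp under MTF2, and the domain touching an exon of Xrra1 had 584 of 2775 bp.

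Few of the domains adjoined an EZH2 site. The median gap to the nearest EZH2 peak was 67354 bp (60559 to 72306), to the nearest MTF2 peak 59890 bp (52165 to 66111) and to the nearest EZH2-bearing domain 71919 bp (66373 to 80441), over the 1827 domains on chromosomes. An EZH2 peak lay within 1 kb of 55 domains (3.01%), within 10 kb of 18.4% and within 100 kb of 59.4%. An EZH2-bearing domain lay within 5 kb of 217 domains (11.9%, 10.4 to 13.4), while 7.73% (6.96 to 8.55) of EZH2-bearing domains had another within that gap. With domains merged across gaps of up to 3 kb these shares were 3.33% and 2.63%. The distance to EZH2 is bound up with the choice of the domains and is a description.

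The domains farthest from EZH2 were isolated. The one at Slitrk1, a neuronal adhesion gene, spanned 4619 bp (chr14:108910699-108915317) over the TSS and was 2759326 bp from an EZH2 peak and 2758454 bp from any other H3K27me3 domain, with 2.81 CpG per 100 bp and no H3K4me3 in either genotype. The next were 2 intergenic domains far from any protein-coding TSS. The first was on chromosome 5 (1576709 bp from the nearest TSS, that of G6pd2, and 2509432 bp from EZH2). The second was on chromosome 16 (633467 bp from that of Robo1, and 2381450 bp from EZH2). After these came domains at Cdh18 (2326784 bp), a cadherin gene, and Ccer1 (2319785 bp). None of these 5 was overlapped by gene-trap H3K27me3. In the 2 intergenic domains and that at Cdh18 gene-trap H3K4me3 was called where wild-type was not. In the chromosome 5 domain, with G6pd2 as its nearest gene, 24.1% of 75-base stretches occur more than once in the genome.

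**Figure D3:**
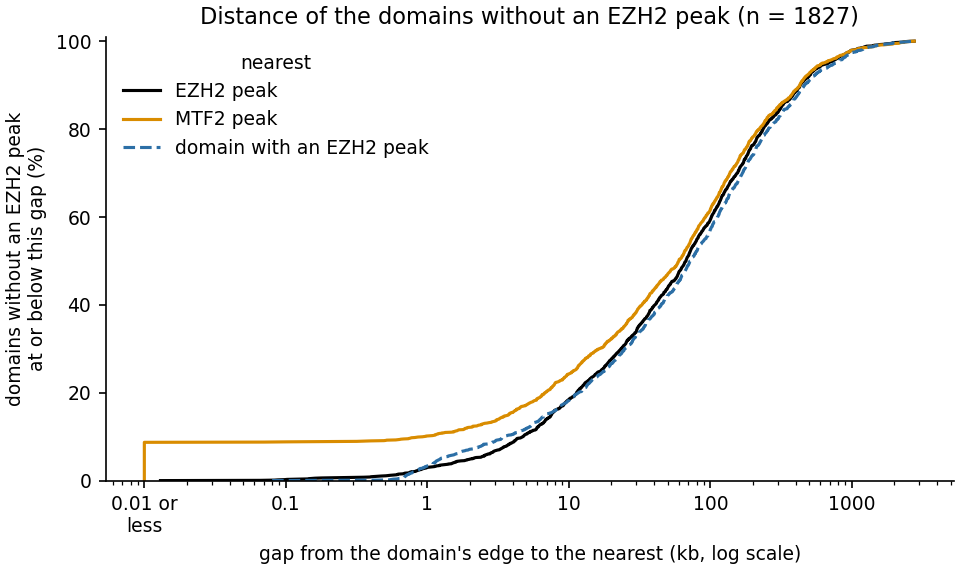
Cumulative percent of the 1827 domains without EZH2 on chromosomes (y axis) by the gap in kb (x axis, log scale; an overlap is drawn at 0.01) to the nearest EZH2 peak (black), MTF2 peak (orange) and EZH2-bearing domain (blue, dashed). The 3 curves run together beyond 100 kb, where 59.4%, 61.7% and 57.1% of domains have been counted, and the MTF2 curve starts at the 159 domains that MTF2 overlaps.

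Some lay side by side. Runs of neighbouring domains without EZH2, each within 5 kb of the next, numbered 121 and held 255 of the 1830 (13.9%); 13 runs had 3 domains, the most found. The median gap to the nearest other H3K27me3 domain of any kind was 33747.5 bp, against 76888 bp for EZH2-bearing domains. At Pappa, which encodes a secreted metalloprotease, 3 such domains of 8984, 7147 and 4267 bp lay 110.5 to 133.1 kb into the direction of transcription from the TSS. The promoter of Pappa had an EZH2-bearing domain of 7651 bp with MTF2 and H3K4me3. In gene-trap cells that promoter domain had no H3K27me3 or EZH2 peak, while gene-trap H3K27me3 peaks of 3854 and 2664 bp lay in the first and the third of the distal domains. The locus was picked after its values were seen, as the run with little repeated sequence and the most domains kept (2). A run of 2 domains nearest to Sox9 also had 2 kept, and Pappa was taken because its domains cover more bases.

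**Figure D4:**
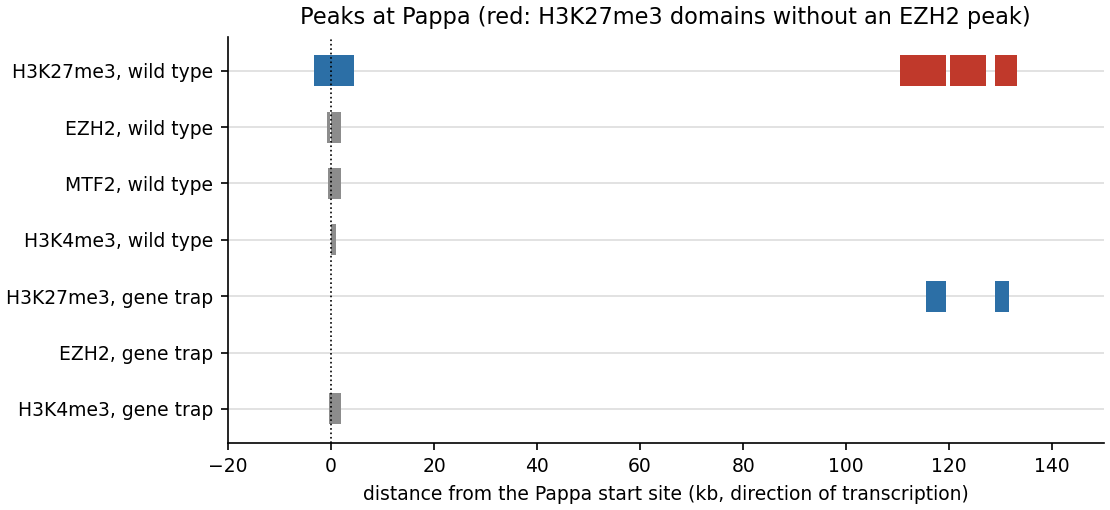
Peaks of the 7 lists (rows) by distance in kb from the Pappa start site (x axis); each box is a peak, red boxes are H3K27me3 domains without an EZH2 peak, blue boxes other H3K27me3 peaks and grey boxes peaks of the other antibodies. The 3 red domains start 110.5, 120.1 and 128.8 kb from the start site, and gene-trap H3K27me3 is listed over the first and the third but not over the promoter domain.

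CpG density was lower than in EZH2-bearing domains, and lower in the wider classes. The median was 2.16 CpG per 100 bp (2.10 to 2.23), against 2.94 (2.91 to 2.98) in EZH2-bearing domains, while GC content was 50.8% against 51.8%. By width class the medians were 2.39, 2.24, 1.93, 1.67 and 1.06, against 3.75, 3.14, 2.85, 2.92 and 2.82 for EZH2-bearing domains. The richest 200 bp held a median of 13 CpG (12 to 13) against 27 (27 to 27). GCG, counted on either strand because MTF2 is known to prefer CpG in such a context, came to 1.14 per 100 bp (1.09 to 1.18) against 1.80 (1.78 to 1.83). Density was 2.52 in domains with H3K4me3 and 1.60 in those without, and 2.62 in domains with MTF2. The median soft-masked (repeat) share was close in both groups, at 13.5% and 13.3%, but the upper quartile was 21.8% without EZH2 and 17.8% with it. Widths were not matched in these values.

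**Figure D5:**
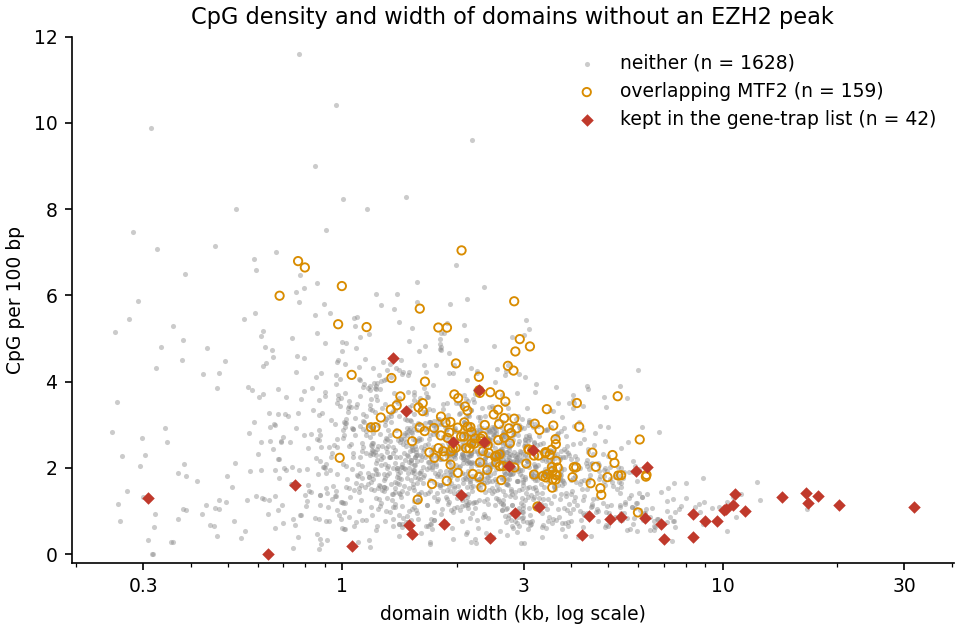
CpG per 100 bp (y axis) by width in kb (x axis, log scale) of the 1827 domains without EZH2 on chromosomes: those overlapping MTF2 (orange circles, 159), those kept in the gene-trap H3K27me3 list (red diamonds, 42) and the others (grey); 2 domains carry both symbols. Beyond 10 kb kept domains lie between 1.003 and 1.42 CpG per 100 bp.

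In Mtf2 gene-trap cells 45 of the 1830 domains were kept, that is, overlapped by a gene-trap H3K27me3 peak (2.46%, 1.80 to 3.28), against 11.1% of all domains and 652 EZH2-bearing ones (14.6%, 13.6 to 15.7). The EZH2-bearing share weighted to the same width classes was 3.30%, close to the upper end of the interval for domains without EZH2. In the narrowest class 12 of 884 domains without EZH2 (1.36%, 0.703 to 2.36) and 0 of 375 EZH2-bearing ones were kept, a count of 0 that allows up to 0.979%. In the widest class 19 of 75 (25.3%, 15.99 to 36.7) and 503 of 1184 (42.5%, 39.6 to 45.4) were kept, at median widths of 7484 and 8093 bp. Of domains of 10 kb or more, 11 of 19 (57.9%, 33.5 to 79.7) and 295 of 393 (75.1%, 70.5 to 79.3) were kept, at median widths of 11466 and 14499 bp. Gene-trap EZH2 peaks overlapped 2 of the 1830 domains (0.109%, 0.0132 to 0.394), against 3.11% of all domains. Of EZH2-bearing domains they overlapped 4.35% (3.77 to 4.99), or 1.28% with those weighted to the same width classes. Of the 2, the domain of 2247 bp was not kept, lay 106341 bp from the nearest TSS, that of Atxn7l3b, and was 63.8% soft-masked repeat. The other, of 309 bp in an intron with Tmem267 the nearest TSS, was kept, was 83.5% soft-masked, and had 41.9% of its 75-base stretches repeated in the genome.

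The kept domains were wide, CpG-poor and mostly distal. Their median width was 4460 bp (2677 to 7002), against 2089 bp for those lost, and their CpG density 1.08 (0.869 to 1.33) against 2.18 per 100 bp. Kept EZH2-bearing domains had 2.91 (2.84 to 2.98). A wider domain offers more bases for a gene-trap peak to overlap, and widths were not matched in these values. The widest class held 19 of the kept domains, and the median over all 75 domains without EZH2 in it was 1.06 CpG per 100 bp. Of the 45, 35 lay away from promoters and 10 at them (22.2%, 11.2 to 37.1), against 37.5% at promoters among all 1830. H3K4me3 was absent from 34 and present in 11 (24.4%, 12.9 to 39.5), against 57.8% of all 1830. MTF2 overlapped 2 (4.44%, 0.543 to 15.1), an interval that spans the 8.69% of all 1830. The nearest EZH2 peak of the kept domains was a median of 90695 bp away (36536 to 160539), and their nearest other H3K27me3 domain 10350 bp (1600 to 25582). The gene-trap peaks covered a median of 43.8% of the kept domain, from 5.22% to the full width in 7, and 44.1% in kept EZH2-bearing domains.

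The widest domain of all was intergenic (chr5:33447187-33478956, nearest gene Nkx1-1, a homeobox gene), with 7347 of its 31770 bp kept and no H3K4me3. A domain touching an exon of Sez6 (17853 bp, chr11:77948593-77966445, nearest TSS that of Phf12) kept 2019 bp. An intergenic domain nearest to Chic2 (16795 bp, chr5:74947237-74964031) kept 4123 bp, and one nearest to Dhx35 (16687 bp, chr2:159061831-159078517) was not overlapped by any gene-trap peak. These 4 had between 1.05 and 1.36 CpG per 100 bp. Other distal kept domains included 3 with the nearest TSS that of Sox9, a regulator of cartilage and testis, of 10751, 5407 and 5052 bp at 77431 bp or more from it, and 1 of 11466 bp touching an exon of Nes, the neural progenitor filament gene, 2099 bp from an EZH2 peak.

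Kept domains at promoters numbered 10. Pef1, a calcium-binding protein gene, had the widest (chr4:130087694-130102046, 14353 bp, ending 511 bp upstream of the TSS), with 4108 bp kept and no H3K4me3 in either genotype. This domain overlaps another gene, Col16a1. At Spop, a ubiquitin ligase adaptor gene, 2007 of 3280 bp were kept, and at Hdac2, a histone deacetylase gene, 1305 of 2851 bp, both domains upstream of the TSS. Plod2, a collagen-modifying enzyme gene, kept 805 of 1848 bp, Samd11 1221 of 1472 bp and Rabl6, a GTPase-like gene, 803 of 1363 bp. Gm17428 and 4933416C03Rik kept 397 of 2750 and 430 of 2289 bp, and were the 2 kept domains with MTF2. The Gm17428 domain overlaps the gene Myh7, and the 4933416C03Rik domain also overlaps Ptprr.

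Repeated sequence touched the kept domains more than the others. AW822073 and Duxf3, the last being the Dux gene of early embryos, lie in a tandem array on chromosome 10, and both domains were covered in full by gene-trap H3K27me3. In these 2 domains, 39.0% and 49.5% of 75-base stretches sampled every 10 bp occurred more than once in the genome. A read from a repeated stretch has no single position, while the other sampled stretches occurred once. The domain over Duxf3 had 0 bp of H3K4me3 in wild-type and 1934 bp in gene-trap cells. Of the 45 kept domains, 7 had at least 10% of such stretches repeated, against 70 of all 1827 domains on chromosomes (3.83%), and 3 more lay on an unplaced contig without a sequence match here, where all 3 domains were kept. Of the 12 kept in the narrowest class, 5 were repeated in this way. Without repeated and contig domains 35 of 1757 were kept (1.99%, 1.39 to 2.76), in the narrowest class 6 of 842 (0.713%, 0.262 to 1.54).

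Among genes, 714 of 21924 protein-coding genes had a domain without EZH2 at the promoter. Of these, 666 (3.04% of all genes) had no EZH2-bearing domain there, 48 had both, and 3546 genes (16.2%) had an EZH2-bearing one. The 666 are counted below against 23 gene lists, of which 115 of the 4152 genes (2.77%) were among them. None of these 115 genes had its domain kept.

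Homeobox and other developmental transcription factor genes, among the classical Polycomb targets, mostly had EZH2, whereas 31 of 418 zinc finger genes (7.42%) did. A gene with an EZH2-bearing domain cannot be among the 666. Of 151 homeobox and patterning genes 146 (96.7%) had an EZH2-bearing domain and 1 (0.662%, 0.0168 to 3.63) a domain without EZH2 alone: Six5, with 2595 bp, 409 bp of them under MTF2 and 1835 bp under H3K4me3. The list named for forkhead, GATA, T-box, Sox, Zic and bHLH factors also holds other factors, such as Dmrt genes. Of its 173 genes 114 were EZH2-bearing and 3 had a domain without EZH2 alone. The interval of that share (1.73%, 0.359 to 4.98) spans the 3.04% of all genes. The 3 were the Dmrt gene Dmrtc2 (5390 bp, shared with Lypd4), Hes3 (3830 bp) and Foxj1 (1814 bp), the regulator of motile cilia. Cell cycle inhibitors had Cdkn1a alone of 7 genes (14.3%, 0.361 to 57.9), with 4 EZH2-bearing.

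Germline genes were represented by 8 of 40 (20%, 9.05 to 35.6), with 7 EZH2-bearing. They encode the synaptonemal complex proteins Sycp2 (4061 bp) and Syce1 (3733 bp), the piRNA factors Mael (3635 bp) and Mov10l1 (2738 bp), the meiotic cohesin Smc1b (2796 bp), the recombination nuclease Spo11 (2107 bp), the RNA-binding protein Dazl (2092 bp) and the testis bromodomain protein Brdt (1208 bp). All 8 domains held the TSS, 7 had H3K4me3 (Spo11 had none in either genotype) and 2 had MTF2 (Sycp2 and Mael). None of the 8 was kept, against 1.46% of all domains without EZH2 at promoters. The domain at Dazl had 5.31 CpG per 100 bp and that at Brdt 3.97.

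Cadherins and protocadherins had 15 of 112 (13.4%, 7.69 to 21.1), with 58 EZH2-bearing. Cdh5, the vascular endothelial cadherin, had the widest, of 5389 bp over the TSS and without H3K4me3. Another domain of 10621 bp lay 969 bp from it, with 554 bp kept. The protocadherin beta cluster, whose genes give neurons their surface identity, supplied 7 of the 15, of 22 genes in the cluster with 11 EZH2-bearing. Pcdhb13 and Pcdhb14 share 1 domain of 5220 bp, and Pcdhb12 had 3742 bp without H3K4me3 in either genotype. Its genes are near copies of each other, but at most 3.47% of sampled 75-base stretches (Pcdhb12) were repeated in these domains.

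Extracellular matrix genes had 12 of 122 (9.84%, 5.19 to 16.6), with 56 EZH2-bearing. Thbs2, which encodes a thrombospondin, had 5790 bp over the TSS without H3K4me3, and a neighbouring domain of 8359 bp kept 3162 bp, 403307 bp from any EZH2 peak. The fibrillar collagen genes Col1a1 (4328 bp, 26 bp under H3K4me3), Col1a2 (3013 bp) and Col11a1 (2601 bp) were also among them, as was the tenascin gene Tnc (2066 bp). Col24a1 and Tnc went from 0 to 1377 and 758 bp of H3K4me3 in gene-trap cells. Keratins had 4 of 53 (7.55%, 2.09 to 18.2, an interval that spans the 3.04% of all genes), and 3 were EZH2-bearing. The 4 were Krt8 (3260 bp), Krt7 (2757 bp), Krt19 (1732 bp) and Krt2 (1505 bp), all with H3K4me3. Krt8, Krt7 and Krt19 are keratins of simple epithelia, and Krt8 was also the gene found among 33 extraembryonic genes.

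In the neuronal lists, transmitter receptors had 8 of 129 (6.20%), led by the NMDA receptor subunit Grin2d (5486 bp, shared with Kdelr1) and the glycine receptor subunit Glra1 (3947 bp). Axon guidance and synaptic adhesion genes had 8 of 119 (6.72%), led by Efna1, an ephrin, with 4939 bp of which 3567 bp were under H3K4me3, and Slitrk1. Ion channels had 8 of 171 (4.68%), all with H3K4me3, led by the potassium channel Kcnj10 (4883 bp) and the calcium channel subunit Cacng3 (3238 bp). These 3 lists had 68, 65 and 93 EZH2-bearing genes. The intervals of their shares, 2.72 to 11.9%, 2.95 to 12.8% and 2.04 to 9.01%, all span the 3.04% of all genes.

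Signalling and other families gave small counts. In each list from ligands to imprinted genes below, the 95% interval of the share spanned the 3.04% of all genes. The shares ran from 2.37% (1.09 to 4.46) for solute carriers to 6.94% (2.29 to 15.5) for receptor kinases and phosphatases. Ligands and antagonists had 5 of 114 (4.39%), with Fgf6 (12300 bp, no H3K4me3) far wider than Gdf1 (2916 bp), Fgf21 (2739 bp), Fgf11 (1758 bp) and Tgfb1 (1371 bp). Receptor kinases and phosphatases had 5 of 72, led by Ptpra (3941 bp) and Ptprr (2344 bp). Other G-protein-coupled receptors had 5 of 135, led by Gpr162 (4992 bp) and Gpr137c (2991 bp, shared with Txndc16). Solute carriers had 9 of 379, led by Slc25a31 (3548 bp), a mitochondrial nucleotide carrier of the testis, and Slc7a4 (3210 bp). Immune genes had 10 of 352, led by Cd44 (3563 bp) and H2-T22 (2651 bp, in which 15.04% of sampled stretches were repeated). Zinc finger genes had 11 of 418, led by Zfp651 (5991 bp) and Zfp821 (4406 bp). Imprinted genes had Nap1l5 (1970 bp, 487 bp under MTF2) of 39, and 1 of 1474 chemosensory receptors, Olfr1339, was found. None was found among 30 pluripotency, 30 housekeeping, 14 PRC2 and 23 PRC1 genes, counts of 0 that allow up to 11.6%, 11.6%, 23.2% and 14.8%.

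The widest promoter domains without EZH2 touched the promoters of genes of mixed function. After Pef1 and Fgf6 came Grsf1 (10646 bp), an RNA-binding protein gene whose domain lay upstream of the TSS, Kncn (8706 bp), a gene of hair cells, Khdrbs1 (6707 bp), another RNA-binding protein gene, and Olfr1339 (6627 bp), an odorant receptor gene. Ces1h (6449 bp) encodes a carboxylesterase, Pik3r5 (6281 bp) a kinase subunit, and Dlg4 (6298 bp) and Syt7 (6086 bp) synaptic proteins. The domains at Pef1, Kncn, Khdrbs1 and Syt7, like that at Grsf1, lay wholly upstream of the TSS. The Kncn domain overlaps another gene, Mknk1, and the Khdrbs1 domain was 55.1% soft-masked. The nearest EZH2 peak was 683 bp away at Grsf1, 749 bp at Olfr1339, 928 bp at Syt7 and 416853 bp at Ces1h. Pef1, Fgf6, Kncn and Ces1h had no H3K4me3 in the domain in either genotype, and Pef1 was the one kept.

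The 7 lists held 6357 MTF2, 7213 EZH2, 6294 H3K27me3 and 27418 H3K4me3 regions in wild-type and 840 EZH2, 963 H3K27me3 and 26960 H3K4me3 regions in gene-trap cells. All 8 stem-cell marker genes looked up, among them Pou5f1, Nanog and Sox2, had H3K4me3 at the promoter, and Esrrb also had H3K27me3. A domain without EZH2 is one at which no EZH2 peak was called: whether EZH2 was below the calling threshold there was not tested.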

How the data were processed

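ChIP-seq libraries were read in 75-base reads, per the labels. The submitters' processing notes name CASAVA, BWA 0.7.10-r789, MACS2 2.7 and the build mm10 (GRCm38); roles, thresholds, controls and the combining of libraries are not given in the sources used here. The deposited lists by the authors hold chromosome, start and end in bp, with no score. Starts were converted to count from 1. Domains, peaks, GENCODE M21 start sites and GRCm38 sequence were joined with Python 3.11.15 and scipy 1.17.1, and the interval code was tested on simulated data. Medians carry exact order-statistic and shares exact Clopper-Pearson 95% intervals. No test was made, since each group has 1 list from both libraries and domains are not replicates. Members and gene lists were chosen with earlier results of these data known. Named regions were the 10 widest at promoters (predicted genes passed over), those kept at promoters, list genes with a domain without EZH2 alone (the 2 widest per family), the 5 widest elsewhere (1 of them is not reported here), the 5 farthest from EZH2, the 5 with most MTF2 and the 5 widest promoter domains without H3K4me3; genes named beyond these, the weighting by width class, the runs and the count of repeated stretches were chosen after values were seen. The libraries for input, for Jarid2, and for Mtf2 in Jarid2 KO E4 and EED KO cells were not analysed here. Sequence and repeat values are missing for 3 domains on an unplaced contig.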

Additional observations from a re-analysis of the deposited data

How the results depend on the processing

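No paired analysis was possible because each deposited list combines both libraries of its group, and for the same reason no library could be left out. Extending EZH2 peaks by 1 kb and using autosomes alone left all 8 results within their intervals or, for the count, within 1.5 times. With EZH2 peaks of at least 500 bp there were 2712 members against 1830, since domains overlapped by smaller EZH2 peaks alone were then included. Their median width was 2294 bp, the promoter share 45.2%, H3K4me3 68.4% and MTF2 28.3%. The share within 5 kb of an EZH2-bearing domain was 8.59% and CpG density 2.34 per 100 bp. With domains merged across gaps of up to 3 kb the promoter share was 40.6%, H3K4me3 61.1%, the share within 5 kb 3.33% and CpG density 2.27. With domains of at least 2 kb there were 971 members of median width 2955 bp, with MTF2 at 11.5%, kept at 3.50% and CpG density 2.00. The promoter share was 42.2% with a window of 2.5 kb, 21.3% with the TSS inside the domain and 45.3% with genes of every type. H3K4me3 stood at 44.4% when at least 500 bp were asked for. MTF2 stood at 10.2% with a peak within 1 kb and at 0.765% with MTF2 peaks of at least 500 bp. The kept share was 1.09% when at least 50% of the domain had to be covered. A gap of 10 kb to an EZH2-bearing domain gave 18.2%, and the central 1 kb gave a CpG density of 2.30. In all these settings that rebuild the domains or the EZH2 list, the kept, H3K4me3, MTF2 and promoter shares stayed below those of EZH2-bearing domains. These shares were not weighted by width. In the main setting the kept share was 2.46%, against 3.30% for EZH2-bearing domains weighted to the same width classes. In the narrowest class the kept shares went the other way, with 12 of 884 domains without EZH2 and 0 of 375 EZH2-bearing ones. The causes were not tested. Neither depth nor thresholds are known, so that domains without a listed EZH2 peak cannot be taken as free of EZH2.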
